A study of Mus musculus with 16 samples.

Results

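Macrophages that fuse with one another build multinucleated cells, of which the osteoclast of bone is the best known, and 8 genes linked to that fusion and to the osteoclast were followed here in whole mouse lung. They are Ocstamp, Dcstamp, Atp6v0d2, Tm4sf19, Tarm1, Trem2, Acp5 and Ctsk, 8 of the 19938 genes measured. The set was chosen by the levels of Ocstamp, Atp6v0d2 and Tm4sf19, which stood out between the groups of these same arrays. Values of these 3 genes are therefore given as a description with no test. The other 5 are genes with related roles, listed with earlier results of these data known. Each of the 8 genes had 1 probe set annotated with its symbol alone, and all 8 were used. They lie on 8 mouse chromosomes in RefSeq's GRCm38.p6 table: Ocstamp on 2, Dcstamp on 15, Atp6v0d2 on 4, Tm4sf19 on 16, Tarm1 on 7, Trem2 on 17, Acp5 on 9 and Ctsk on 3.

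Total RNA of whole lung was hybridised to 16 Affymetrix whole-transcript arrays, 4 in each of 4 groups. The groups were Vldlr-/- (KO) mice given house dust mite extract (HDM), wild-type (WT) B6129SF2/J mice given HDM, KO mice given saline, and WT mice given saline. HDM is an allergen mixture from mites, and intranasal dosing with it makes an asthma-like airway inflammation in mice. The dose was 25 µg of HDM in 10 µl, given intranasally on 5 days per week for 6 weeks, and saline was given in the same volume and schedule. Vldlr encodes the very low density lipoprotein receptor, which binds apolipoprotein E among other ligands. Neither the strain of the KO mice nor any age is stated in the labels used here. The titles call the 4 samples of a group biological replicates without saying how many animals gave each RNA, so the p-values cover only the spread among those samples, which may be technical in part.

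As background, a fusing macrophage needs cytokine signals, fusion machinery at its surface and, once it is an osteoclast, a secreted acid and protease load. DC-STAMP and OC-STAMP, encoded by Dcstamp and Ocstamp, are multi-pass membrane proteins without which osteoclast precursors stay mononuclear. The same machinery is used by the giant cells that macrophages form under the cytokines IL-4 and IL-13, which are also the cytokines of allergic airway inflammation. In the lung, alveolar and interstitial macrophages are the resident macrophages, and the arrays measured the tissue as a whole. In such bulk RNA, fewer cells of a type and less RNA per cell cannot be told apart.

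The deposited values are on a log2 scale, so 1 unit is a doubling, and levels are comparable between arrays for a gene but not between genes. Vldlr itself read 9.40 to 9.91 in KO HDM lungs and 10.27 to 10.92 in WT HDM lungs, and 9.77 to 9.90 in KO saline lungs against 10.50 to 10.75 in WT saline lungs. The groups did not overlap in either treatment, as the labels require. Medians of the arrays ran from 8.78 to 8.85, and pairs of arrays correlated at 0.9784 to 0.9972. The lung epithelial genes Sftpc, Sftpb, Scgb1a1 and Ager, looked up afterwards as a check of the tissue, read 11.82 or more on every array. Some arrays stood apart for the genes followed here. Among the WT saline lungs, replicates 2 and 3 read 10.85 and 10.12 for Tm4sf19, where replicates 1 and 4 read 8.92 and 9.06. Among the WT HDM lungs, replicates 3 and 4 were the higher pair for Tm4sf19, Atp6v0d2, Ctsk, Acp5, Trem2 and Tarm1. Replicate 4 of the KO HDM lungs was the lowest of its group for each of the 8 genes. Calls that ended without one of these arrays are given beside the results, for the genes below whose calls were followed with arrays left out. The HDM calls of Itgb3 and Cd81 in KO lungs and of Adam8 in WT lungs were not followed in this way.

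Ocstamp was high in the KO HDM lungs and in no other group. It read 10.36, 10.39, 10.54 and 9.54 in KO HDM lungs, 8.87, 8.66, 9.11 and 8.81 in WT HDM lungs, 9.0, 8.93, 8.78 and 8.76 in KO saline lungs, and 8.86, 9.27, 9.17 and 8.82 in WT saline lungs. Every KO HDM value lay above all 12 values of the other groups, whose ranges overlapped one another. HDM against saline came to 1.34 (SE 0.17) on the log2 scale in KO lungs, 2.53-fold, and to -0.17 (SE 0.17) in WT lungs. The HDM change in KO lungs minus that in WT lungs was 1.51 (SE 0.24).

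Dcstamp, the other fusion protein, was also highest in KO HDM lungs but moved in WT lungs as well. It read 11.18, 10.29, 10.64 and 9.74 in KO HDM lungs, 8.99, 9.08, 9.05 and 8.71 in WT HDM lungs, 8.58, 8.37, 8.83 and 8.55 in KO saline lungs, and 8.36, 8.36, 8.22 and 7.66 in WT saline lungs. The order of the means was KO HDM, WT HDM, KO saline and WT saline, and of neighbouring groups in that order only WT HDM and KO saline overlapped. Dcstamp rose with HDM by 1.88 (SE 0.22) in KO lungs, 3.68-fold, with an adjusted p of 5.5e-05 in limma. In WT lungs it rose by 0.81 (SE 0.22), 1.75-fold, with a limma adjusted p of 0.0211. The WT call ended without replicates 2 and 3 of the WT saline lungs (adjusted p 0.0606 in limma), without WT saline replicate 4 (0.0607) and without WT HDM replicate 2 (0.0517). The difference between the 2 changes, 1.08 (SE 0.31), had a limma adjusted p of 0.106 and passed the threshold of 0.05 once KO HDM replicate 4 was left out, at 1.31 with an adjusted p of 0.0101.

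Tarm1 followed the pattern of Ocstamp. Its product is an activating receptor of myeloid cells that signals through the Fc receptor gamma chain. Tarm1 read 10.37, 10.19, 11.12 and 9.83 in KO HDM lungs, 8.85, 8.68, 8.99 and 9.36 in WT HDM lungs, 8.89, 8.89, 8.87 and 8.81 in KO saline lungs, and 8.93, 9.13, 9.23 and 8.82 in WT saline lungs. The KO HDM values lay above all others, and the other groups overlapped. It rose with HDM by 1.52 (SE 0.19) in KO lungs, 2.86-fold, with an adjusted p of 0.000129 in limma. In WT lungs the change was -0.06 (SE 0.19, 95% interval -0.47 to 0.35), with a limma adjusted p of 0.856. The difference between the 2 changes was 1.57 (SE 0.28) with an adjusted p of 0.0173 in limma. Without WT saline replicates 2 and 3, whose Tarm1 values were the highest of their group, that difference was 1.42 with an adjusted p of 0.118 in limma.

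Tm4sf19 spanned the widest range of the 8 genes. It encodes a membrane protein with 4 membrane-spanning segments, of the L6 family, and has been tied to osteoclast formation. It read 13.07, 12.94, 12.86 and 11.75 in KO HDM lungs, 9.31, 9.04, 12.21 and 11.10 in WT HDM lungs, 8.75, 8.67, 8.40 and 8.53 in KO saline lungs, and 8.92, 10.85, 10.12 and 9.06 in WT saline lungs. The KO saline lungs were low and close together, with an SD of 0.15, whereas the WT lungs were spread, with an SD of 1.5 under HDM and 0.92 under saline. The KO HDM and WT HDM ranges touched, since WT HDM replicate 3 exceeded KO HDM replicate 4. HDM against saline came to 4.07 (SE 0.55) in KO lungs, 16.8-fold, and to 0.68 (SE 0.55) in WT lungs. The WT change ran from 0.08 (SE 0.47), without WT HDM replicate 3, to 1.14 (SE 0.54), without WT HDM replicate 2, when single arrays were left out. Without WT saline replicates 2 and 3 together it was 1.43 (SE 0.63), and the difference between the 2 changes was 2.64 (SE 0.81) in place of 3.39 (SE 0.78). Under saline, KO lungs differed from WT lungs by -1.15 (SE 0.55, or 0.34 in a fit to the saline arrays alone). Every KO saline value lay below every WT saline value. Without those WT saline replicates the difference was -0.40 (SE 0.63).

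**Figure D1:**
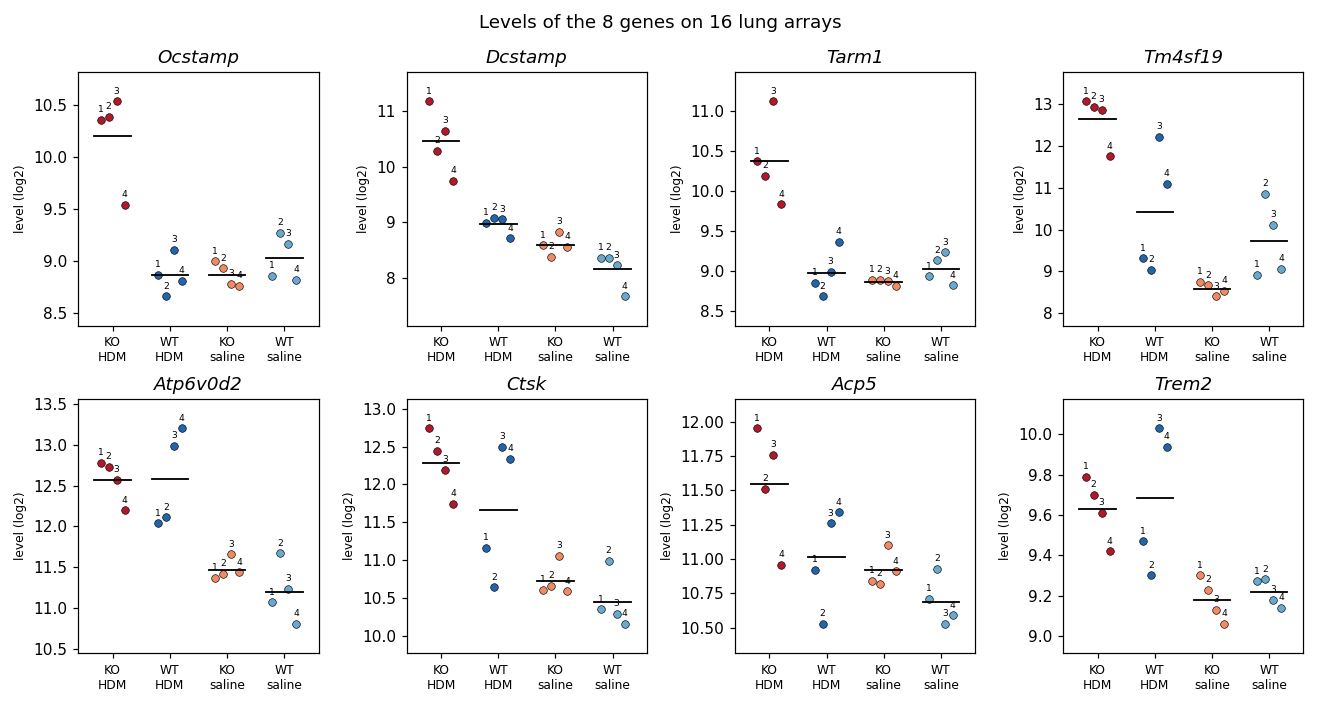
Level (log2) of each of the 8 genes on all 16 arrays, with points for single arrays numbered by replicate, a line at each group mean, and groups from left to right KO HDM, WT HDM, KO saline and WT saline. Ocstamp and Tarm1 are high in KO HDM lungs alone, Atp6v0d2, Ctsk and Trem2 are high under HDM in both genotypes, and Tm4sf19 ranges from 8.40 in a KO saline lung to 13.07 in a KO HDM lung.

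Atp6v0d2 was high under HDM in both genotypes, with means of 12.57 in KO HDM and 12.59 in WT HDM lungs. It encodes the d2 subunit of the vacuolar proton pump, a form enriched in osteoclasts and macrophages that takes part in fusion of osteoclast precursors. It read 12.78, 12.73, 12.57 and 12.20 in KO HDM lungs, 12.04, 12.11, 12.99 and 13.20 in WT HDM lungs, 11.37, 11.42, 11.66 and 11.44 in KO saline lungs, and 11.07, 11.67, 11.24 and 10.81 in WT saline lungs. Every HDM value lay above every saline value, and the genotypes overlapped within each treatment. HDM against saline came to 1.10 (SE 0.23) in KO lungs, 2.14-fold, and to 1.39 (SE 0.23) in WT lungs, 2.62-fold. KO HDM lungs differed from WT HDM lungs by -0.02 (SE 0.23).

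Ctsk and Acp5 encode secreted enzymes of the osteoclast, cathepsin K, which degrades collagen, and tartrate-resistant acid phosphatase, the classic osteoclast stain. Ctsk read 12.74, 12.44, 12.19 and 11.74 in KO HDM lungs, 11.16, 10.64, 12.50 and 12.34 in WT HDM lungs, 10.61, 10.66, 11.06 and 10.59 in KO saline lungs, and 10.35, 10.99, 10.29 and 10.16 in WT saline lungs. All KO HDM values exceeded all KO saline values, while WT HDM replicate 2 lay below WT saline replicate 2. Ctsk rose with HDM by 1.55 (SE 0.32) in KO lungs, 2.92-fold, limma adjusted p 0.00583, and by 1.21 (SE 0.32) in WT lungs, 2.32-fold, limma adjusted p 0.0184. The WT call was lost without WT HDM replicate 4 (limma adjusted p 0.0627), without WT saline replicates 2 and 3 (0.0510) and in a fit to the WT arrays alone (0.0509). Acp5 read 11.95, 11.51, 11.76 and 10.96 in KO HDM lungs, 10.92, 10.53, 11.26 and 11.34 in WT HDM lungs, 10.84, 10.82, 11.10 and 10.91 in KO saline lungs, and 10.71, 10.93, 10.53 and 10.59 in WT saline lungs. Its neighbouring groups overlapped throughout. It rose with HDM by 0.63 (SE 0.18) in KO lungs, 1.54-fold, with a limma adjusted p of 0.0404, a call that was lost when any of KO HDM replicates 1, 2 and 3, KO saline replicates 1, 2 and 4 or WT saline replicate 1 was left out (limma adjusted p 0.0504 to 0.132). It was lost too without WT saline replicates 2 and 3 together (limma adjusted p 0.0567), after quantile normalization (0.0574) and with a variance trend and robust estimation (0.0639). In WT lungs its change was 0.32 (SE 0.18), with a limma adjusted p of 0.215.

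Trem2 encodes a lipid-sensing macrophage receptor that signals through the adaptor Tyrobp, and it showed the smallest range. It read 9.79, 9.70, 9.61 and 9.42 in KO HDM lungs, 9.47, 9.30, 10.03 and 9.94 in WT HDM lungs, 9.30, 9.23, 9.13 and 9.06 in KO saline lungs, and 9.27, 9.28, 9.18 and 9.14 in WT saline lungs. Every HDM value lay above every saline value of the same genotype, and the genotypes overlapped. Trem2 rose by 0.45 (SE 0.13) in KO lungs and by 0.47 (SE 0.13) in WT lungs, with limma adjusted p-values of 0.0333 in KO and 0.0208 in WT. The KO call was lost without any 1 of KO HDM replicates 1, 2 and 3 or KO saline replicates 2, 3 and 4 (limma adjusted p 0.0664 to 0.0994), and without WT saline replicates 2 and 3 together (0.0557). The WT call was lost without WT HDM replicate 3 (0.0544) or 4 (0.0691, limma adjusted p-values), without WT saline replicates 2 and 3 together (0.102) and in a fit to the WT arrays alone (0.0531).

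Over the set, all 5 genes that could be tested (Dcstamp, Tarm1, Trem2, Acp5 and Ctsk) rose with HDM in KO lungs, where 8.84% of all genes passed the test, 4.96% upward and 3.88% downward. In WT lungs 3 of these 5 rose (Dcstamp, Ctsk and Trem2), against 17.6% of all genes passing, 7.86% upward and 9.72% downward. The median HDM change of these 5 genes was 1.52 in KO lungs and 0.47 in WT lungs, with medians of all genes at -0.03 in KO and -0.05 in WT. In KO lungs 4 of the 5 had every HDM value above every saline value, Acp5 being the exception, and 6.71% of all genes did so upward. In WT lungs 2 of the 5 did so (Dcstamp and Trem2), against 9.13% of all genes. The KO and WT comparisons have no array in common, although the fit gives them 1 estimate of spread.

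**Figure D2:**
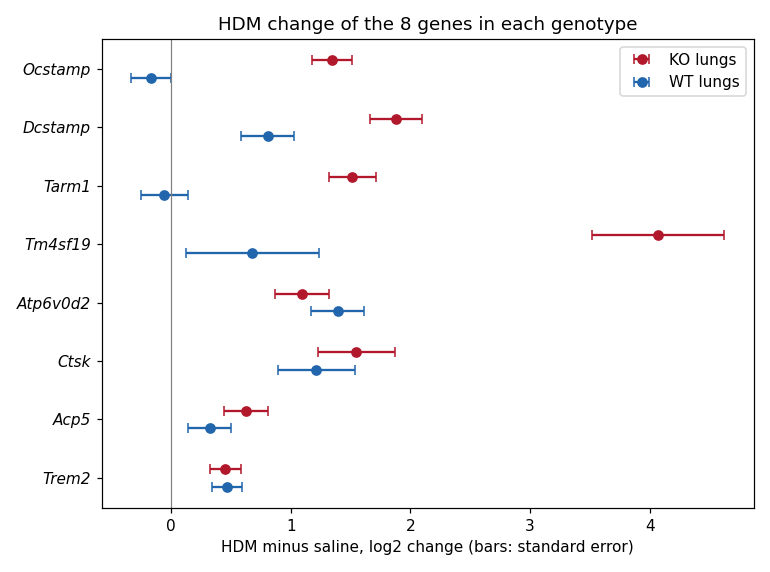
HDM minus saline change (log2) of the 8 genes, with KO lungs above WT lungs in each row and bars of 1 standard error from the fit to all 16 arrays. Ocstamp and Tarm1 lie near 0 in WT lungs (-0.17 and -0.06) and above 1 in KO lungs (1.34 and 1.52), while Trem2 lies at 0.45 in KO and 0.47 in WT lungs.

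Set directly against each other under HDM, on the same HDM arrays as above, KO lungs were higher than WT lungs for Dcstamp by 1.51 (SE 0.22), 2.84-fold and rank 9 from the top, and for Tarm1 by 1.41 (SE 0.19), 2.66-fold and rank 12. Their limma adjusted p-values were 0.000917 and 0.000621. Of the 5 tested genes these 2 passed, and 11.7% of all genes passed in that comparison, 5.84% upward and 5.83% downward. Acp5 was 0.53 higher (SE 0.18, limma adjusted p 0.0667) and passed when KO HDM replicate 4 was left out (0.73, adjusted p 0.00427 in limma), and likewise without WT HDM replicate 3 (0.0475) or 4 (0.0498). Ctsk differed by 0.62 (SE 0.32, 95% interval -0.06 to 1.30) and Trem2 by -0.05 (SE 0.13, 95% interval -0.32 to 0.22), with limma adjusted p-values of 0.238 and 0.842. The untested Ocstamp and Tm4sf19 differed by 1.35 (SE 0.17) and 2.24 (SE 0.55). Dcstamp and Tarm1 were the 2 of the 5 tested genes whose KO HDM and WT HDM values did not overlap, and 5.74% of all genes did not overlap upward.

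Under saline none of the 5 tested genes passed between KO and WT lungs, where 0.231% of all genes passed. Their differences ran from -0.16 for Tarm1 to 0.43 for Dcstamp, with limma adjusted p-values of 0.691 or more, and at an unadjusted p of 0.05 none passed either, the lowest being 0.0658 for Dcstamp. Dcstamp was the 1 of the 5 with all KO saline values above all WT saline values, and 3.16% of all genes had them so. For the difference between the HDM changes, 0.802% of all genes passed, and Tarm1 was the 1 of the 5 tested genes among them. Dcstamp (1.08), Ctsk (0.33, SE 0.46), Acp5 (0.31, SE 0.26) and Trem2 (-0.01, SE 0.18) did not pass.

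Genes of the circadian clock also differed between the groups, with the WT HDM lungs set apart. A score made of the mean of 9 clock output genes such as Dbp and Per3 minus the mean of Arntl and Clock was -0.29 to -0.19 in KO HDM lungs and 0.14 to 0.62 in WT HDM lungs, and -0.71 to -0.38 in KO saline lungs against -0.67 to -0.33 in WT saline lungs. With that score as a covariate, KO HDM lungs against WT HDM lungs came to 1.38 for Dcstamp and 1.03 for Tarm1, with limma adjusted p-values of 0.702 and 0.737, to 0.80 (SE 0.32) for Ocstamp, and with turned signs to -0.19 (SE 0.96) for Tm4sf19 and -0.11 (SE 0.66) for Ctsk. In the WT lungs the HDM changes under the covariate were 0.97 for Dcstamp, 2.16 for Ctsk and 1.06 for Trem2, each larger than without it, and none passed (limma adjusted p 0.733, 0.483 and 0.327). The largest move there was that of Tm4sf19, to 3.82 (SE 1.18), and the WT changes of Ocstamp and Tarm1 turned sign, to 0.53 (SE 0.40) and 0.43 (SE 0.50). The HDM changes in KO lungs kept their calls for Dcstamp (1.93), Tarm1 (1.66), Ctsk (1.82) and Trem2 (0.63), and Acp5 lost its call at an adjusted p of 0.0672 in limma. The difference between the HDM changes was 1.22 for Tarm1, with an adjusted p of 0.997 in limma, 1.16 (SE 1.02) for Tm4sf19 and 1.01 (SE 0.34) for Ocstamp, and it turned sign for Ctsk, at -0.34 (SE 0.69). The score separated WT HDM lungs from all other arrays, and the covariate made the standard errors of the 8 genes a median of 2.53 times as large for HDM in WT lungs, 2.05 times for KO against WT under HDM, 1.53 times for the difference between the HDM changes and 1.19 times for HDM in KO lungs.

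Likeness among the 8 genes over the 16 arrays was closest within a pair of gene groups, with Acp5 and Tm4sf19 near both. Ocstamp and Tarm1 had a Pearson's r of 0.95 and Ocstamp and Dcstamp of 0.86, while Ocstamp had 0.50 with Atp6v0d2 and 0.47 with Trem2, the lowest of 28 pairs. Atp6v0d2 and Ctsk had 0.94, Atp6v0d2 and Trem2 0.91, and Ctsk and Trem2 0.90. Tm4sf19 had 0.85 with Ocstamp and 0.88 with Ctsk. Acp5 had 0.90 with Ctsk and 0.85 with Dcstamp, 0.81 with Tarm1 and 0.79 with Ocstamp, and its 0.76 with Atp6v0d2 and 0.72 with Trem2 were lower. Dcstamp and Ctsk had 0.80. After the group means were taken off, so that only differences between replicates remained, Atp6v0d2 and Ctsk still had 0.93, Tm4sf19 had 0.88 with both, and Ocstamp had 0.70 with Tarm1, 0.69 with Tm4sf19 and 0.68 with Acp5. Dcstamp then had 0.59 with Ocstamp and with Acp5. Its values were lower with Tarm1 (0.37), Ctsk and Atp6v0d2 (0.31 each), Tm4sf19 (0.26) and Trem2 (0.22). These are descriptions over 16 arrays that share the groups and, in part, the arrays that stood apart.

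**Figure D3:**
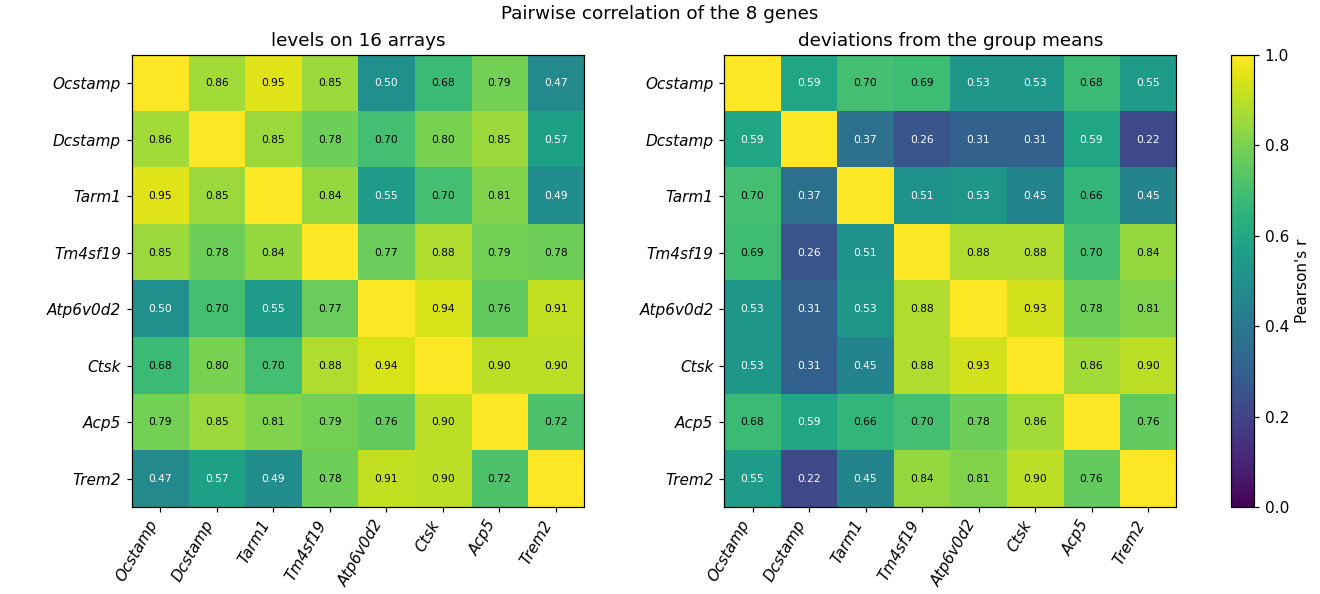
Pearson's r between the levels of the 8 genes, over 16 arrays on the left and, on the right, over the same arrays after each group's mean was subtracted. On the left, Atp6v0d2, Ctsk and Trem2 have 0.90 to 0.94 with one another, Acp5 has 0.72 with Trem2 and 0.85 with Dcstamp, and the Dcstamp row drops to 0.22 with Trem2 on the right.

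Likeness was then ranked across all genes except those named Gm with digits or with a name ending in Rik. The 5 most like Ocstamp over the 16 arrays were Ccl24 (r = 0.970), which encodes the eosinophil attractant eotaxin-2, the chemokine receptor gene Ccr8 (0.963), the protease inhibitor gene Tfpi2, the eosinophil ribonuclease gene Ear6 (both 0.955) and Tarm1 (0.948). Ccl24 averaged 10.76 ± 1.18 in KO HDM lungs, 7.91 ± 0.20 in WT HDM lungs, 7.82 ± 0.17 in KO saline lungs and 8.58 ± 0.68 in WT saline lungs (SD, n = 4 each). The 5 most like Atp6v0d2 were Tlr13, Myo5a, Itgb2, Lilrb4a and Cd200r1 (r from 0.966 to 0.973). Tlr13, a receptor for bacterial ribosomal RNA, averaged 10.69 ± 0.27 in KO HDM lungs, 10.71 ± 0.71 in WT HDM lungs, 9.77 ± 0.04 in KO saline lungs and 9.48 ± 0.09 in WT saline lungs (SD, n = 4 each). The 5 most like Tm4sf19 were the mast cell protease gene Mcpt2 (r = 0.969), Cmtm3, Corin, Ankrd55 and Arg1 (0.955 to 0.962), the last encoding arginase 1 of IL-4-treated macrophages. Arg1 averaged 10.84 ± 0.86 in KO HDM lungs, 8.90 ± 0.64 in WT HDM lungs, 7.82 ± 0.11 in KO saline lungs and 8.60 ± 0.70 in WT saline lungs (SD, n = 4 each). The 3 sets of 5 had no gene in common.

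The regulators of the osteoclast were set beside these genes through a list of 14 growth factors, receptors and adaptors. For this and the lists that follow, the shares of all genes called with HDM were 4.96% upward and 3.88% downward in KO lungs. In WT lungs they were 7.86% upward and 9.72% downward. In KO lungs 4 of the 14 rose with HDM and 0 fell. Csf1, the macrophage growth factor, rose by 0.46 (SE 0.09, limma adjusted p 0.00538), Csf1r by 0.36 (adjusted p 0.0162 in limma) and Tnfrsf11a, which encodes the receptor RANK, by 0.18 (adjusted p 0.0318 in limma). In WT lungs 2 rose, Csf1 by 0.33 (limma adjusted p 0.0261) and Fcer1g, the Fc receptor gamma chain, by 0.49 (limma adjusted p 0.0181). Tnfsf11, which encodes RANK ligand, differed by -0.001 (SE 0.07) in KO and -0.13 (SE 0.07) in WT lungs, and Tyrobp by 0.37 in KO and 0.17 in WT lungs (limma adjusted p 0.0831 in KO and 0.357 in WT). The osteoclast receptor gene Oscar differed by -0.01 in KO and -0.11 in WT lungs, short of the test in both (limma adjusted p 0.943 in KO and 0.248 in WT). The KO calls of Csf1r and Tnfrsf11a ended when 1 of several KO arrays was left out, at limma adjusted p-values up to 0.0592 for Csf1r and 0.111 for Tnfrsf11a. Fitted to the KO arrays alone, both ended too (limma adjusted p 0.05025 for Csf1r and 0.0904 for Tnfrsf11a). The KO change of Tyrobp passed in that fit (limma adjusted p 0.0383), and in 4 of 25 alternative fits in all. With the clock score as a covariate, the KO call of Tnfrsf11a ended at 0.16 (limma adjusted p 0.127). The WT calls of Csf1 and Fcer1g ended without WT HDM replicate 4 (0.0842 and 0.0584) and without WT saline replicate 1 (0.0874 and 0.0614, limma adjusted p-values), and that of Csf1 without WT saline replicate 2 (0.0611) or after quantile normalization (0.0629). Without WT saline replicates 2 and 3 together both WT calls ended (limma adjusted p 0.0667 for Csf1 and 0.0532 for Fcer1g), as did the KO call of Tnfrsf11a (0.0585).

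Of 12 transcription factors and repressors of the osteoclast, 4 rose in KO lungs and 5 in WT lungs with HDM, and 0 fell in either. Mitf, a factor that acts on osteoclast genes such as Acp5 and Ctsk, rose by 0.66 (SE 0.08, limma adjusted p 4.34e-05) in KO and by 0.53 (SE 0.08, limma adjusted p 0.000412) in WT lungs. Its relative Tfec rose by 0.88 in KO and 0.66 in WT lungs (limma adjusted p 0.0114 in KO and 0.0362 in WT). Spi1, which encodes the myeloid factor PU.1, rose by 0.74 (SE 0.16) in KO and 1.16 (SE 0.16) in WT lungs, with limma adjusted p-values of 0.00785 in KO and 0.000338 in WT. Nfatc1, the master factor of RANK-driven osteoclast formation, differed by 0.09 (SE 0.07) in KO and 0.07 (SE 0.07) in WT lungs, and did not pass (limma adjusted p 0.452 in KO and 0.4998 in WT). The WT call of Tfec ended without WT HDM replicate 3 or 4 or WT saline replicate 1, 3 or 4 (limma adjusted p 0.0589 to 0.110), without WT saline replicates 2 and 3 together (0.0851), after quantile normalization (0.0584) and with a variance trend and robust estimation (0.0563).

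Promoter sequences were read for the genes of the set that have one in the RefSeq table (build GRCm38.p6), which were 5 of the 8: Tm4sf19, Tarm1, Trem2, Acp5 and Ctsk. Each window holds the 250 bases before a transcript start and is printed 5′ to 3′ on the gene's strand, since Mitf and Spi1 moved with HDM beside these genes. Capitals mark matches on either strand to 4 short motifs: the PU.1 core GAGGAA, the AP-1 site TGANTCA, the Mitf E-box CATGTG or CACGTG, and the STAT6 site, which is TTC and GAA with any 4 bases between them. For Acp5, which has 3 windows, the one with a match is shown.
Tm4sf19, chr16:32400256-32400505, plus strand: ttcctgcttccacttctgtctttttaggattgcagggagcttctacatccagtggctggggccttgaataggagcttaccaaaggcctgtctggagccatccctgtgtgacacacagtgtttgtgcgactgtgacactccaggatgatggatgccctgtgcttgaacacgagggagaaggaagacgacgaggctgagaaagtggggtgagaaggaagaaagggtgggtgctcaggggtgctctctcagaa
Tarm1, chr7:3502625-3502874, minus strand: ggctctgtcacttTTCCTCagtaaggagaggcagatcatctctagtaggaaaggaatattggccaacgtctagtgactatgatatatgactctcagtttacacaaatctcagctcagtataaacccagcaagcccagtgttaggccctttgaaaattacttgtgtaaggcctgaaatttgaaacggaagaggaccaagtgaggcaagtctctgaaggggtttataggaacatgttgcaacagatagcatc
Trem2, chr17:48346151-48346400, plus strand: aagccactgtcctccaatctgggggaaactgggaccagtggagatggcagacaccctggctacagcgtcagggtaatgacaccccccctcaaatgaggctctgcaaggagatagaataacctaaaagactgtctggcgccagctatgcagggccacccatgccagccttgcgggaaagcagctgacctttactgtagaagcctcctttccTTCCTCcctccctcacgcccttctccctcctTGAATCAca
Acp5, chr9:22130599-22130848, minus strand: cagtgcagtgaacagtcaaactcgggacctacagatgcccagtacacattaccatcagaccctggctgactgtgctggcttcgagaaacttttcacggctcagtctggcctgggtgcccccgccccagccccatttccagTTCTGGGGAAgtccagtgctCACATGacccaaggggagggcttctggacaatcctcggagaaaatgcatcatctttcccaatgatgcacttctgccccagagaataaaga
Ctsk, chr3:95498960-95499209, plus strand: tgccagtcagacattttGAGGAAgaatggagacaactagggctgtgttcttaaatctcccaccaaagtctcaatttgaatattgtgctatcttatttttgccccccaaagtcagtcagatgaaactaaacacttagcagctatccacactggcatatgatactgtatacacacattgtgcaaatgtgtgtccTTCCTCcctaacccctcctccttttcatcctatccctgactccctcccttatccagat
The start used for Tm4sf19 lies 494 bases inside the outermost start of its RefSeq record, that for Tarm1 130 bases and that for Acp5 5148 bases, and those for Trem2 and Ctsk are the outermost starts. The Ctsk window held the PU.1 core at -233 to -228 and at -58 to -53 from the start, the Tarm1 window at -237 to -232 and the Trem2 window at -40 to -35. The Trem2 window also held an AP-1 site at -9 to -3, and the Acp5 window a Mitf E-box at -90 to -85 and a STAT6 site at -110 to -101. No 2 of these matches overlapped. Among 32851 promoters of the table, 23.3% held the PU.1 core, 6.7% the AP-1 site, 17.6% the Mitf E-box and 5.9% the STAT6 site. The Tm4sf19 window held none of the 4 motifs.

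Among 18 genes with known parts in macrophage fusion, 5 rose and 2 fell in KO lungs with HDM, and 6 rose and 1 fell in WT lungs. Cd200r1, an inhibitory receptor of macrophages, rose by 0.99 (SE 0.14) in KO and 1.19 (SE 0.14) in WT lungs, with limma adjusted p-values of 0.000397 in KO and 0.000161 in WT. Itgb2, the beta chain of the leukocyte integrins, rose by 0.77 in KO and 0.75 in WT lungs (limma adjusted p 0.00162 in KO and 0.00208 in WT). Cd81, a tetraspanin reported to hold fusion back, fell by 0.27 in KO and by 0.54 in WT lungs (limma adjusted p 0.00566 in KO and 5.11e-05 in WT). Adam8, a membrane metalloprotease, rose by 0.94 (SE 0.11) in KO and by 0.47 (SE 0.11) in WT lungs (limma adjusted p 5.62e-05 in KO and 0.00987 in WT), and KO HDM lungs exceeded WT HDM lungs by 0.70 (SE 0.11, limma adjusted p 0.00159). Il4ra, the shared receptor chain for IL-4 and IL-13, was also higher in KO HDM than in WT HDM lungs, by 0.40 (SE 0.09, limma adjusted p 0.00745), while its HDM changes were 0.26 in KO and -0.17 in WT lungs, neither past the threshold (limma adjusted p 0.0690 in KO and 0.156 in WT). Fitted to the HDM arrays alone, the Il4ra difference had an adjusted p of 0.0703 in limma. Its HDM change in KO lungs passed under 4 of 25 alternative fits, such as one with the replicate number as a block (limma adjusted p 0.0435). Adam8 and Il4ra were the 2 of 18 fusion genes higher in KO HDM lungs, and 0 were lower, beside 5.84% of all genes higher and 5.83% lower.

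**Figure D4:**
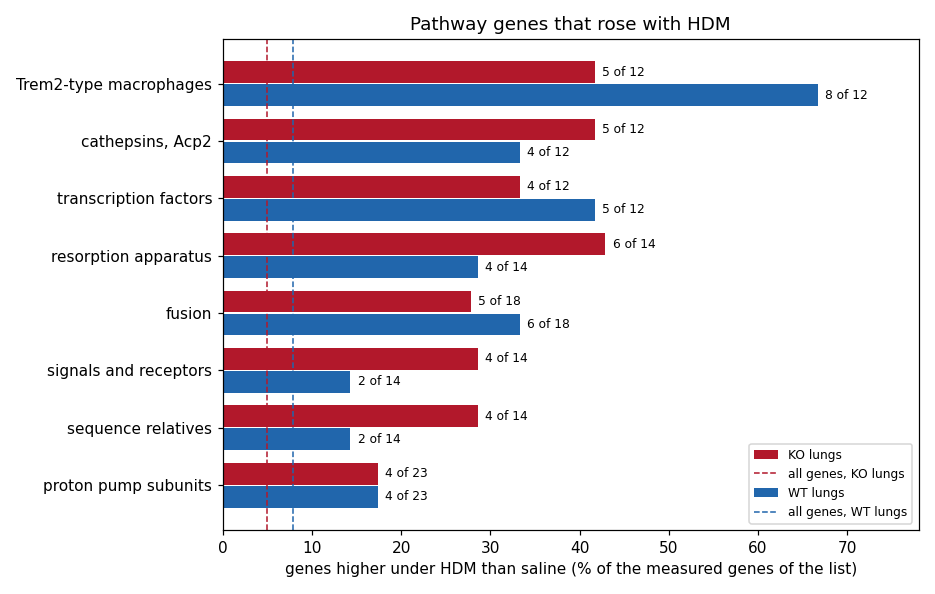
Percent of the measured genes of each of 8 lists that rose with HDM by the limma test at an adjusted p under 0.05, with the KO bar above the WT bar, the gene counts beside the bars, and dashed lines at the percent of all genes that rose (4.96 in KO lungs, 7.86 in WT lungs). The list of Trem2-expressing macrophages has 5 of 12 in KO lungs and 8 of 12 in WT lungs, and the proton pump list 4 of 23 in both.

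The apparatus that dissolves bone was called in part. Of 14 resorption genes, 6 rose and 1 fell in KO lungs, and 4 rose and 1 fell in WT lungs. Tcirg1, the proton pump subunit that osteoclasts need, rose by 0.64 (SE 0.09) in KO and 0.46 (SE 0.09) in WT lungs, with limma adjusted p-values of 0.000283 in KO and 0.00358 in WT. Mmp14, a membrane-bound collagenase, rose by 0.57 in KO lungs and differed by 0.19 in WT lungs (limma adjusted p 0.000397 in KO and 0.104 in WT), and was 0.37 higher in KO HDM than in WT HDM lungs (limma adjusted p 0.0101, or 0.0633 when fitted to the HDM arrays alone). Itgb3, the beta chain of the osteoclast's vitronectin receptor, rose by 0.26 in KO lungs and differed by -0.10 in WT lungs (limma adjusted p 0.0236 in KO and 0.315 in WT), and was 0.32 higher in KO HDM than in WT HDM lungs (limma adjusted p 0.00713). Car2, the carbonic anhydrase that feeds acid secretion, rose by 0.59 in KO lungs and differed by 0.04 in WT lungs (limma adjusted p 0.00272 in KO and 0.803 in WT). Calcr, the calcitonin receptor gene that marks mature osteoclasts, fell by 0.27 in KO lungs and differed by -0.06 in WT lungs, where its limma adjusted p was 0.589 (in KO 0.0234, with 0.0573 to 0.0799 when KO HDM replicate 2 or 3 or KO saline replicate 1 or 2 was left out).

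Of 23 other subunits and partners of the vacuolar proton pump, 4 rose and 1 fell in KO lungs and 4 rose and 2 fell in WT lungs, Tcirg1 being counted here too. Atp6v0d1, the broadly expressed d subunit that Atp6v0d2 replaces, differed by -0.05 (SE 0.10) in KO and -0.06 (SE 0.10) in WT lungs (limma adjusted p 0.814 in KO and 0.695 in WT). Atp6v0a4, a subunit known from kidney and inner ear, rose by 1.25 (SE 0.17) in KO lungs and differed by 0.19 (SE 0.17) in WT lungs (limma adjusted p 0.000203 in KO and 0.419 in WT), was 0.99 higher in KO HDM than in WT HDM lungs (limma adjusted p 0.00244), and differed in its HDM change by 1.05 (SE 0.24, limma adjusted p 0.0481). The last call ended, at limma adjusted p-values of 0.0622 to 0.0993, without any 1 of 13 arrays, and at 0.210 without WT saline replicates 2 and 3 together. Of 12 cathepsins and lysosomal phosphatases, 5 rose in KO lungs and 4 in WT lungs, and 0 fell. Ctsl rose by 0.82 in KO and by 0.60 in WT lungs (limma adjusted p 0.00844 in KO and 0.0320 in WT), and its WT call ended without WT HDM replicate 3 (0.0801) or 4 (0.0908), WT saline replicate 1 (0.0889), 3 (0.0573) or 4 (0.0592), or WT saline replicates 2 and 3 together (0.0832), all limma adjusted p-values. Ctss rose by 0.78 in KO lungs and differed by 0.44 in WT lungs (limma adjusted p 0.00890 in KO and 0.0811 in WT). Ctsd rose by 0.72 in WT lungs and differed by 0.40 in KO lungs (limma adjusted p 0.0597 in KO and 0.00182 in WT). The HDM changes of Ctsl, Ctss and Ctsd did not pass a test of their difference between the genotypes (limma adjusted p 0.719, 0.542 and 0.390).

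Of 12 genes that mark Trem2-expressing macrophages rich in lipid, 5 rose and 1 fell in KO lungs, and 8 rose and 0 fell in WT lungs. Mmp12, macrophage elastase, rose by 3.44 (SE 0.40) in KO lungs, 10.8-fold, and by 1.51 (SE 0.40) in WT lungs, 2.84-fold, with limma adjusted p-values of 4.78e-05 in KO and 0.0178 in WT. Gpnmb, a lysosomal and surface glycoprotein, rose by 2.07 (SE 0.37) in KO and 1.30 (SE 0.37) in WT lungs (limma adjusted p 0.00215 in KO and 0.0264 in WT). Itgax, the integrin chain CD11c, rose by 1.61 in KO and 1.16 in WT lungs (limma adjusted p 0.00021 in KO and 0.00291 in WT). The WT calls of Mmp12 and Gpnmb ended without WT saline replicate 1 (limma adjusted p 0.0587 for Mmp12 and 0.0768 for Gpnmb), and that of Gpnmb also without WT HDM replicate 3 (0.0656) or 4 (0.0826) or WT saline replicate 3 (0.0575) or 4 (0.0597). Fitted to the WT arrays alone, neither passed (limma adjusted p 0.0555 for Mmp12 and 0.0745 for Gpnmb).

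Of 14 sequence relatives of Trem2, Tarm1 and Tm4sf19, 4 rose and 3 fell in KO lungs, and 2 rose and 6 fell in WT lungs. The inhibitory receptor genes Lilrb4a and Pirb rose in both genotypes, by 0.97 and 0.64 in KO lungs and by 1.01 and 0.70 in WT lungs (limma adjusted p 0.00582 and 0.0105 in KO, 0.00400 and 0.00483 in WT). Lilra5 fell by 0.70 in KO lungs (SE 0.10, limma adjusted p 0.000377) and differed by 0.19 in WT lungs (limma adjusted p 0.180). It differed by -0.73 between KO HDM and WT HDM lungs (limma adjusted p 0.000626), and its HDM change differed by -0.89 (SE 0.14, limma adjusted p 0.0101). That last call was lost without WT saline replicates 2 and 3 together (limma adjusted p 0.0862). With the clock score as a covariate, the KO against WT calls under HDM named above for Adam8, Il4ra, Mmp14, Itgb3, Atp6v0a4 and Lilra5 were lost, at limma adjusted p-values of 0.801 to 0.972. The difference of Il4ra stayed at 0.40 (SE 0.18), while those of Mmp14 and Itgb3 came to 0.06 each (SE 0.15 and 0.12), and those of Adam8, Atp6v0a4 and Lilra5 to 0.31, 0.47 and -0.37. The HDM calls of the pathway genes in WT lungs were lost under it too. Of 33 such calls followed under the alternatives, those of Dcstamp, Ctsk and Trem2 included, 27 had a larger change in the same direction under the covariate, such as Mmp12 (3.12, SE 0.95), Gpnmb (2.72, SE 0.91), Itgax (1.94, SE 0.54) and Spi1 (1.76, SE 0.39), and 6 a smaller or turned one.

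Markers of other cell types moved beside these genes, and their part in the results was not tested. The shares of all genes to set beside their counts are 4.96% upward and 3.88% downward for HDM in KO lungs, 7.86% and 9.72% in WT lungs, and 5.84% and 5.83% for KO against WT under HDM. A mean over 6 eosinophil genes was 9.31 to 10.02 in KO HDM lungs, 8.84 to 9.30 in WT HDM lungs, 8.12 to 8.24 in KO saline lungs and 8.14 to 8.58 in WT saline lungs. KO HDM replicate 4 was the lowest of its group there too, and WT saline replicates 2 and 3 were the highest of theirs, as for Tm4sf19. Of the 6 eosinophil genes, 5 rose in KO and 3 in WT lungs, and 3 were higher in KO HDM than in WT HDM lungs. A mean over 6 general macrophage genes was 11.18 to 11.58 in KO HDM lungs, 11.21 to 11.55 in WT HDM lungs, 11.14 to 11.25 in KO saline lungs and 11.04 to 11.17 in WT saline lungs, and 2 of the 6 rose and 1 fell in KO lungs while 1 rose in WT lungs. For 8 genes of interstitial macrophages and monocytes the means were 10.42 to 10.82 in KO HDM, 10.19 to 10.66 in WT HDM, 10.11 to 10.29 in KO saline and 10.03 to 10.25 in WT saline lungs, with 4 higher and 1 lower in KO and 3 higher in WT lungs.

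A mean over 10 alveolar macrophage genes ran the other way in KO lungs, at 9.78 to 10.12 in KO HDM, 9.95 to 10.36 in WT HDM, 10.23 to 10.36 in KO saline and 10.06 to 10.14 in WT saline lungs. Of these 10 genes 4 fell and 0 rose in KO lungs, while 2 rose and 0 fell in WT lungs, and 3 were lower in KO HDM than in WT HDM lungs. A mean over 6 bone cell genes was 7.55 to 7.75 in KO HDM, 7.48 to 7.56 in WT HDM, 7.60 to 7.77 in KO saline and 7.61 to 7.73 in WT saline lungs, with 0 called in KO lungs and 1 lower in WT lungs. Of 6 mast cell genes 2 rose in KO and 1 in WT lungs, with means of 8.55 to 9.01 in KO HDM, 8.27 to 8.78 in WT HDM, 8.21 to 8.34 in KO saline and 8.24 to 8.41 in WT saline lungs. Of 8 neutrophil genes 1 rose and 3 fell in KO lungs and 1 rose and 4 fell in WT lungs, and of 6 dendritic cell genes 0 passed in KO and 1 rose in WT lungs. Of 7 cartilage and 6 skeletal muscle genes 0 passed in KO lungs and 1 of each list fell in WT lungs. Of 13 clock genes 7 rose and 1 fell in WT lungs with HDM, 1 rose in KO lungs, and 7 were lower and 1 higher in KO HDM than in WT HDM lungs.

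**Figure D5:**
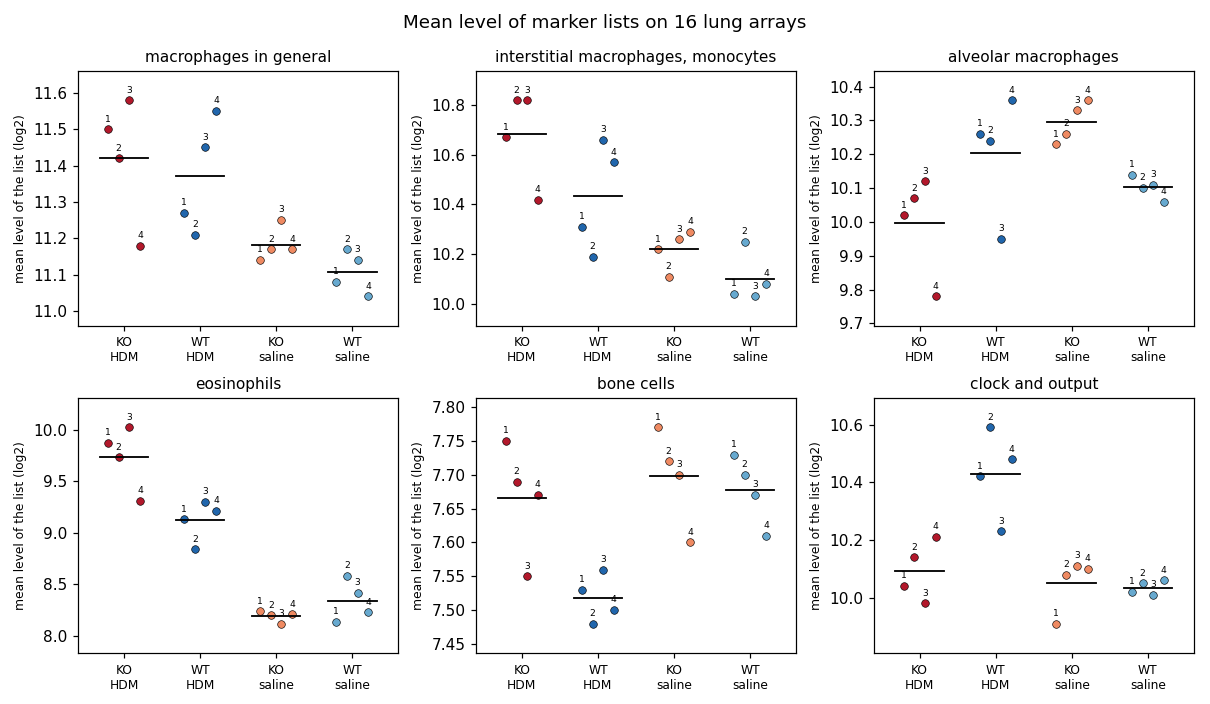
Mean level (log2) of 6 marker lists on all 16 arrays, with points for single arrays numbered by replicate and a line at each group mean. The eosinophil mean is highest in KO HDM lungs (9.31 to 10.02), the alveolar macrophage mean is lowest in a KO HDM lung (9.78), and the clock mean is highest in WT HDM lungs (10.23 to 10.59).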

How the data were processed

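Labelled sense-strand DNA, made from 50 ng of total lung RNA per sample, was hybridised to the arrays per the labels' protocols. The deposited values are log2 expression levels, 1 per probe set and array. Per the submitters' processing notes, RMA was run in Affymetrix Expression Console, with no version or genome build named. Precision is limited by the 4 arrays per group. Of 35556 probe sets, 21789 had 1 gene symbol in the platform annotation, 1621 had several and 12146 were unnamed. Symbols were checked by gene ID against RefSeq, where 21698 matched. The probe set with the highest mean stood for each of the 999 genes with several, which left 19938 genes.

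Group means of all 16 arrays were fitted with limma 3.58.1 (R 4.3.3), with 12 residual degrees of freedom, 17.3 with the prior. P-values came from limma's moderated test and were Benjamini-Hochberg adjusted over 19938 genes in each of 5 comparisons, with a threshold of 0.05 and 95% intervals. The procedure was tested on simulated data. The members, lists and alternatives were chosen with earlier results of these data known, so no list was tested as a set. The genes named are the 8 members, up to 4 genes with the largest changes among those that passed per list and comparison (filled to 2 by smallest p), 5 genes most correlated with each of Ocstamp, Atp6v0d2 and Tm4sf19 (Gm and Rik names left out), Vldlr, and 11 fixed regulators and partners: Csf1, Tnfsf11, Tnfrsf11a, Nfatc1, Mitf, Tyrobp, Atp6v0d1, Calcr, Oscar, Il4ra and Stat6. Of 119 listed pathway genes, 114 were measured. Alternatives covered the normalization, a filter on dim genes, the variance model, the groups fitted, the probe set rule, the replicate number, the clock score and left-out arrays. Replicate numbers were not treated as pairs in the main fit.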

Additional observations from a re-analysis of the deposited data

Results flagged for a closer look

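Among 32 sets of 4 arrays (the 8 genes in each group), an array whose gap to its nearest neighbour exceeded Dixon's 95% limit for 4 samples appeared 2 times, and chance gives such a gap in about 1 of 20 groups. Tm4sf19 on KO HDM replicate 4 was 11.75, below the other 3 KO HDM arrays (12.86 to 13.07). Ctsk on KO saline replicate 3 was 11.06, above the other 3 KO saline arrays (10.59 to 10.66). The HDM change in KO lungs minus that in WT lungs passed limma's test for 3 genes of the set and its 8 pathway lists, at 1.57 for Tarm1 (adjusted p 0.0173), 1.05 for Atp6v0a4 (adjusted p 0.0481) and -0.89 for Lilra5 (adjusted p 0.0101). The cell type marker and clock lists were not part of this flag. In them Ear6 passed upward and Krt79, Clec9a and Dbp downward for the same difference.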

How the results depend on the processing

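All 16 arrays gave 1763 called genes for HDM in KO lungs, 3505 for HDM in WT lungs, 2327 for KO against WT under HDM, 46 for KO against WT under saline and 160 for the difference between the HDM changes. With single arrays left out, HDM in KO lungs gave 1034 (without KO HDM replicate 3) to 2673, HDM in WT lungs 1960 (without WT HDM replicate 4) to 3799, KO against WT under HDM 968 (without KO HDM replicate 1) to 3831, KO against WT under saline 14 (without KO saline replicate 1) to 66, and the difference 41 (without WT saline replicate 3) to 1019. The counts 2673, 3831 and 1019 were those without KO HDM replicate 4. Of the 114 pathway genes, 43 were called for HDM in KO (27 to 58 with single arrays left out), 44 for HDM in WT (24 to 46), 11 for KO against WT under HDM (7 to 32) and 2 for the difference (1 to 8). Without WT saline replicates 2 and 3 together the counts were 1057 for HDM in WT lungs (21 pathway genes), 10 for KO against WT under saline and 12 for the difference (0 pathway genes). With the clock score as a covariate they were 6 for HDM in WT lungs, 5 for KO against WT under HDM and 0 for the difference (0 pathway genes in each), and the median KO against WT difference of the 8 genes under HDM was 0.112 in place of 0.981. Among the 8 genes and the called pathway genes followed, that covariate turned the sign for Tm4sf19 (-0.187), Ctsk (-0.114) and Nfkb2 (-0.025) in KO against WT under HDM. In HDM against saline in WT lungs it turned Ocstamp (0.533), Tarm1 (0.434) and Siglec15 (0.065), and in the difference it turned Ctsk (-0.337). Signs of uncalled pathway genes are not listed here, and the cause was not tested. Leaving out genes under the 50th percentile of mean level removed Dcstamp of the 8 genes, and Tnfsf11, Oscar and Calcr among others of the lists. It gave 2289 for HDM in WT lungs, 19 for KO against WT under saline and 1 pathway gene for the difference, and a variance trend with robust estimation also gave 1. A fit to the compared groups alone gave 390 genes (4 pathway genes) for KO against WT under HDM and 98 under saline. Upward calls were 44.7% for HDM in WT lungs, and 61.2% with that filter.

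Deviations from the group means correlated at -0.276 to 0.333 between same-numbered arrays. Differently numbered arrays were not set beside them, so these values cannot decide whether replicate numbers pair the samples. The replicate block gave 258 genes for the difference between the HDM changes in place of 160. Under the block Dcstamp passed for that difference (adjusted p 0.0439) and Acp5 did not pass for HDM in KO lungs (0.0503), both in limma. Of 987 values of the 8 genes over all alternatives and comparisons, 36 lost a call and 5 gained one. The sign changed in 25, namely 5 with the clock covariate, 3 without WT saline replicates 2 and 3 together, 1 with quantile normalization and 16 with single arrays left out.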
